A study of Mus musculus with 3 samples.

Results

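Co-stimulatory and checkpoint molecules are the second signals of T cell activation, and 10 of their genes are described here in arthritic mouse knee synovium. The ligand side comprised Cd274, which encodes PD-L1, Pdcd1lg2, which encodes PD-L2, Cd80, Cd86 and Cd40. The receptor side comprised Pdcd1, which encodes PD-1, Cd28, Ctla4, Icos and Lag3. These genes were chosen by name, 10 of 24357 gene symbols in the deposited matrices, and all 10 were listed in all 3 libraries. For each gene, unique molecular identifiers (UMIs, which count captured RNA molecules) were summed per library and cell class and are given per 1000000 UMIs of that class (CPM), with the percent of cells that held at least 1 UMI.

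The cells came from inflamed knee synovium of 6 female wild type C57BL/6 mice, 8 weeks old when used, with collagen- and antibody-induced arthritis. All had received 100 µg type II collagen under the skin on day 0, 1 mg of an anti-collagen antibody cocktail on day 21 and lipopolysaccharide on day 22, and tissue was taken in the effector phase. Tissue of 2 mice was pooled in each of 3 droplet libraries, replicates 1, 2 and 3. There was no untreated group, so every comparison below is between cell classes of the same arthritic joints. Each p-value sets the class difference within libraries against its variation over 3 pooled libraries. That variation was estimated with the help of all genes tested.

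CD80 and CD86 on antigen-presenting cells bind CD28, which promotes T cell activation, and CTLA-4, which restrains it and binds the same ligands more tightly. PD-L1 and PD-L2 bind PD-1, an inhibitory receptor induced on activated T cells, and PD-L1 is inducible by interferon-gamma on many cell types. CD40 on antigen-presenting cells is engaged by CD40 ligand of helper T cells, ICOS is a co-stimulatory receptor of the CD28 family, and LAG-3 is an inhibitory receptor related to CD4.

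Cd274 and Pdcd1lg2 are neighbouring genes on chromosome 19, both on the plus strand in GENCODE M21, and their promoters are shown because the expression of the pair differed between cell classes. The sequences are RefSeq's, on build GRCm38.p6, which is not the GRCm39 build that the submitters' processing notes name; each runs from 250 bases before to 50 bases after the annotated start, and capitals mark a match to the NF-kB consensus.
Cd274 promoter, chr19:29367188-29367487, plus strand: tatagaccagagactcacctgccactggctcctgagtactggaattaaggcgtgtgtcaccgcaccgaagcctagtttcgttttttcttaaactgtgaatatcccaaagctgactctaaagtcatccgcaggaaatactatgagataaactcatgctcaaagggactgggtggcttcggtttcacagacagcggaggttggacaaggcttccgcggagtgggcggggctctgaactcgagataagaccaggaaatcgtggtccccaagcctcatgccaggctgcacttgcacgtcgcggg
Pdcd1lg2 promoter, chr19:29410669-29410968, plus strand: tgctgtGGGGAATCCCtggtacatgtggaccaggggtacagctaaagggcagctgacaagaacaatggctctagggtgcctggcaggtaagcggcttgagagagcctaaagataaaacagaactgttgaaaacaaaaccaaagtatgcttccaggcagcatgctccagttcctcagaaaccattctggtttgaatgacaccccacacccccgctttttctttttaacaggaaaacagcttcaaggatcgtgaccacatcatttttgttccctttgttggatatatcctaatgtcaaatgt
The Cd274 window held no match to the GAS motif TTCNNNGAA, to the ISRE motif (GAAA, any 2 bases, GAAA) or to the NF-kB consensus on either strand. The Pdcd1lg2 window held 1 NF-kB match, with its first base 244 bases before the start, and no GAS or ISRE match. Of 32851 promoter windows of the same length, 8.30% held the GAS motif, 3.44% the ISRE motif and 8.46% the NF-kB consensus, so such a match is a description of these letters only. Windows were given for 5 of the 10 genes, and those of Cd80, Ctla4 and Pdcd1 held none of the 3 motifs.

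The 3 libraries held 11602 to 15263 barcodes with 99782608 to 116125707 UMIs, and 36847 of 38804 barcodes were kept after quality filters and removal of scored doublets. Cell classes were named from fixed markers in a clustering that left out the genes described here. Cd3e averaged 452 CPM in T cell-like cells and 1.66 CPM in monocyte/macrophage-like cells. S100a8 averaged 47714 CPM in neutrophil-like cells and 1349 CPM in monocyte/macrophage-like cells. Both genes were among the naming markers, so these levels describe the classes and do not test their names. Median depth was 1814, 1912 and 1526 UMIs per neutrophil-like cell in replicates 1, 2 and 3 and 12565, 13329 and 10120 UMIs per fibroblast-like cell, so shares of positive cells are also given after each cell was thinned to 1000 UMIs.

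**Figure D1:**
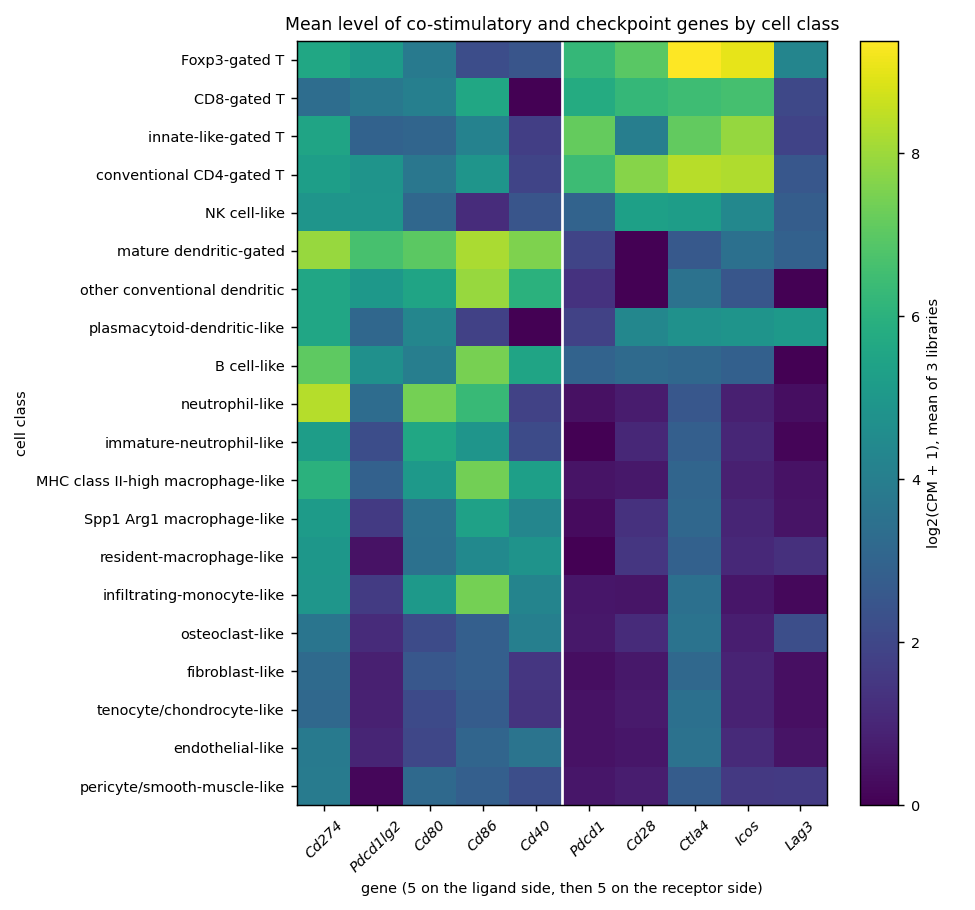
Heat map of the 10 genes (columns) in the cell classes (rows), coloured by log2(CPM + 1) of the mean of 3 libraries. Pdcd1, Cd28, Ctla4 and Icos were high in T cell subsets, and Lag3 had its highest mean in plasmacytoid-dendritic-like cells. Cd274 and Cd80 were high in neutrophil-like and mature dendritic-gated cells. Cd86 and Cd40 were high in mature dendritic-gated, other conventional dendritic, B cell-like and MHC class II-high macrophage-like cells. Plasmacytoid-dendritic-like cells had no Cd40 UMI.

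Cd274 was highest, among classes with at least 20 cells in each library, in neutrophil-like cells, the phagocytes that first enter an inflamed joint. Its level was 258, 233 and 476 CPM in neutrophil-like cells of replicates 1, 2 and 3, against 48.0, 31.7 and 67.6 CPM in monocyte/macrophage-like cells. The classes did not overlap, and neutrophil-like cells were higher in 3 of 3 libraries (log2 fold change 3.04 ± 0.10 (SE), adjusted p = 1.27e-14; edgeR quasi-likelihood F-test with Benjamini-Hochberg adjustment over all genes tested). A call required both an adjusted p under 0.05 and a log2 fold change of 1 or more in size; between these 2 classes 46.4% of 13675 genes met it, 22% in favour of neutrophil-like cells and 24.4% against, as did 4 of the 7 tested co-stimulatory and checkpoint genes, 3 higher and 1 lower, a share near that background. Neutrophil-like cells held 52.0% of a library's Cd274 UMIs on average, and monocyte/macrophage-like cells 30.1%.

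CPM is a share of a class's RNA, and neutrophil-like cells held less RNA per cell. Counted per 1000 cells, Cd274 gave 557, 525 and 859.9 UMIs in neutrophil-like cells and 399.6, 241 and 434 UMIs in monocyte/macrophage-like cells. Neutrophil-like cells were again higher in each library, by a smaller ratio than on the CPM scale. At least 1 Cd274 UMI was found in 26.9% of neutrophil-like cells and 9.90% of fibroblast-like cells on average; at 1000 UMIs per cell the shares were 18.3% and 0.869%.

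Cd274 differed among the 3 neutrophil clusters. The cluster led by the interferon-inducible genes Cxcl10, Ifit1 and Rsad2 had 701, 690.0 and 940.1 CPM. The cluster led by Klhl6 and Pkd1l2 had 229, 224 and 295 CPM, and the one led by Retnlg and G0s2 had 96.0, 110.1 and 188 CPM. The order was the same in each library and the 3 ranges did not overlap; the clusters were made from these cells' own genes, so no test was made. Irf1, a transcription factor induced by interferon-gamma, followed the same order of means, with 1714, 1027 and 858 CPM. Cd80 did not: it averaged 165, 195 and 154 CPM in these clusters, with overlapping ranges. The first cluster is led by interferon-inducible genes, so its high Irf1 is no separate finding. A link between Irf1 and Cd274 was not tested.

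**Figure D2:**
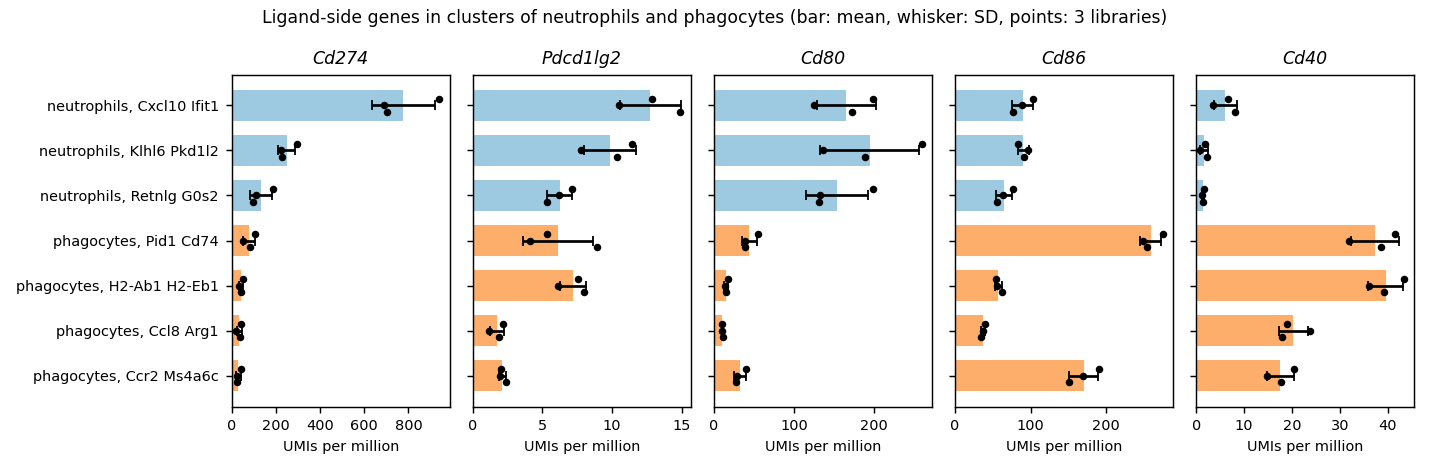
The 5 ligand-side genes in clusters of neutrophils (blue) and phagocytes (orange), each named by leading genes, in CPM; bars are means, whiskers the SD and points the 3 libraries. Cd274 averaged 777 CPM in the neutrophil cluster led by Cxcl10 and 131 CPM in that led by Retnlg, and Cd86 averaged 259 CPM in the phagocytes led by Pid1 and Cd74 and 57.4 CPM in those led by H2-Ab1 and H2-Eb1.

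Replicate 3 had the highest Cd274 in neutrophil-like, monocyte/macrophage-like, mature dendritic-gated and fibroblast-like cells. The interferon-inducible gene Cxcl10 was also highest in replicate 3 in neutrophil-like cells, at 154, 102 and 451 CPM. Its part in the Cd274 spread was not tested; the fold changes are within libraries, since both sums of a library come from the same mice.

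Cd80 followed Cd274 in preferring neutrophil-like cells. It had 159, 133 and 214 CPM in neutrophil-like cells, against 22.6, 24.2 and 31.3 CPM in monocyte/macrophage-like cells. The classes did not overlap (log2 fold change 3.02 ± 0.081 (SE), adjusted p = 7.61e-16). Per 1000 cells the values were 342, 299 and 387 UMIs in neutrophil-like cells and 188, 184 and 201 UMIs in monocyte/macrophage-like cells. Neutrophil-like cells held 52.1% of a library's Cd80 UMIs, and 22.2% of them were positive, against 6.09% of fibroblast-like cells; at 1000 UMIs the shares were 13.8% and 0.556%. Immature-neutrophil-like cells, marked by Ltf, Camp and Ngp, had a lower Cd80 mean of 46.9 ± 23.1 CPM (SD, n = 3).

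Cd86, the other ligand shared by CD28 and CTLA-4, lay on the monocyte/macrophage side. Neutrophil-like cells had 72.0, 78.4 and 87.6 CPM, against 123, 137 and 143 CPM in monocyte/macrophage-like cells. Neutrophil-like cells were lower in 3 of 3 libraries without overlap, but the difference was under the fold limit (log2 fold change -0.43 ± 0.075 (SE), adjusted p = 5.1e-05). Neutrophil-like cells also held less RNA per cell, so per cell the Cd86 difference was wider than on the CPM scale. Monocyte/macrophage-like cells held 74.4% of a library's Cd86 UMIs. The order depended on the phagocyte state. Infiltrating-monocyte-like and MHC class II-high macrophage-like cells averaged 170 and 168 CPM, above the 79.3 CPM of neutrophil-like cells. Spp1 Arg1 macrophage-like and resident-macrophage-like cells averaged 39.9 and 20.9 CPM, below it. The ratio of Cd86 to Cd80 UMIs within a class was 0.453, 0.590 and 0.409 in neutrophil-like cells and 5.44, 5.67 and 4.58 in monocyte/macrophage-like cells; ratios within a class set the 2 genes on the same cells, and only the classes are compared.

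Cd40 was nearly absent from neutrophil-like cells. Its level was 3.0, 1.40 and 3.46 CPM there, against 29.6, 25.8 and 32.3 CPM in monocyte/macrophage-like cells, with no overlap (log2 fold change -3.18 ± 0.16 (SE), adjusted p = 3.22e-12). Fibroblast-like cells had a similarly low 1.5, 1.98 and 1.82 CPM. Pdcd1lg2 was low in both classes. It had 8.88, 7.38 and 10.2 CPM in neutrophil-like cells and 5.65, 3.30 and 4.42 CPM in monocyte/macrophage-like cells (log2 fold change 1.31 ± 0.17 (SE), adjusted p = 1.42e-06), and the call was lost by fold with library totals as the scaling (0.99). Per 1000 cells the order turned: 19.1, 16.6 and 18.5 UMIs in neutrophil-like cells and 47.0, 25.1 and 28.4 UMIs in monocyte/macrophage-like cells. Fewer molecules of a gene per cell and less RNA per cell in all cannot be told apart from class sums.

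**Figure D3:**
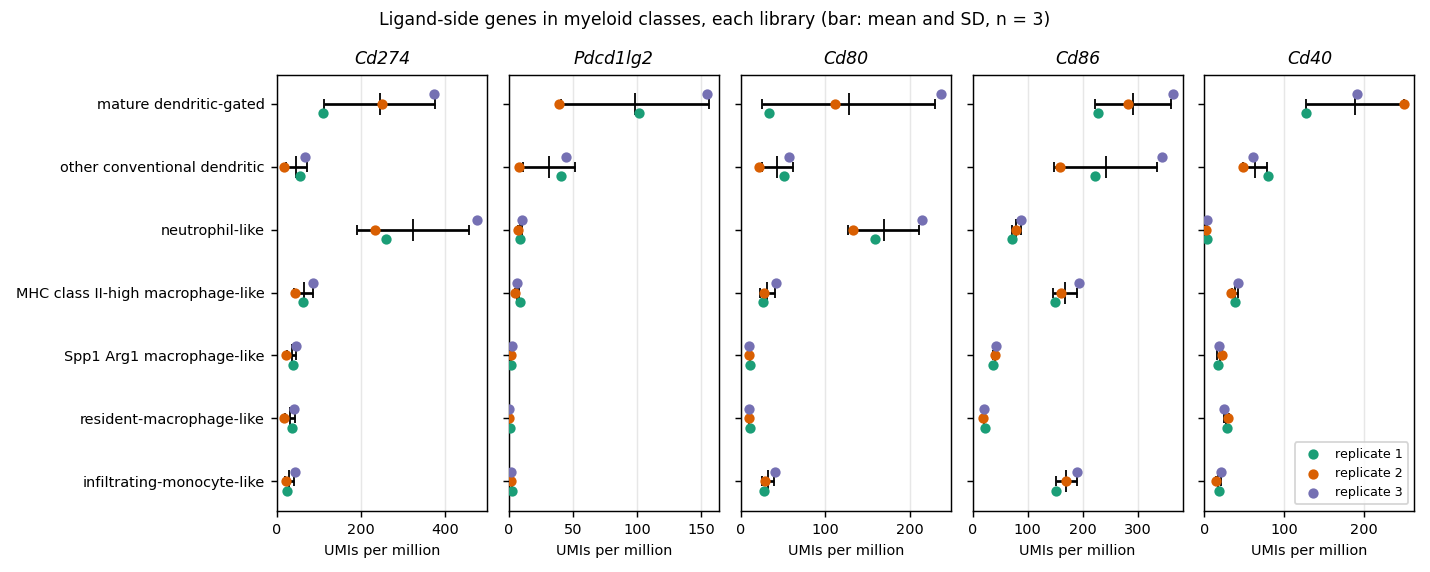
The 5 ligand-side genes in 7 myeloid classes, in CPM; coloured points are the 3 libraries and black bars their mean and SD. Neutrophil-like cells had 258, 233 and 476 CPM of Cd274 and 3.0, 1.40 and 3.46 CPM of Cd40 in replicates 1, 2 and 3, and mature dendritic-gated cells had the highest mean of Pdcd1lg2, Cd86 and Cd40, though not of Cd86 when cells were chosen by gates alone.

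Dendritic-cell-like cells, the professional antigen-presenting class, were set against monocyte/macrophage-like cells. The call rule took in 14.1% of 12906 genes, 6.38% higher and 7.7% lower in dendritic-cell-like cells, and 3 of the 7 tested co-stimulatory and checkpoint genes, all higher in dendritic-cell-like cells. Pdcd1lg2 had 50.8, 12.6 and 59.1 CPM in dendritic-cell-like cells, against 5.65, 3.30 and 4.42 CPM in monocyte/macrophage-like cells, and the classes did not overlap (log2 fold change 2.97 ± 0.32 (SE), adjusted p = 3.06e-09). Cd40 had 80.6, 82.6 and 79.9 CPM in dendritic-cell-like cells, against 29.6, 25.8 and 32.3 CPM in monocyte/macrophage-like cells, again without overlap (log2 fold change 1.37 ± 0.16 (SE), adjusted p = 1.96e-08). The third call was Icos, on 11 UMIs in dendritic-cell-like cells (2.63, adjusted p = 0.00429); it was lost without replicate 1 (adjusted p = 0.0592) and without replicate 2 (adjusted p = 0.0526). Cd3e averaged 2.29 CPM in dendritic-cell-like cells and 1.66 CPM in monocyte/macrophage-like cells; the part of T cell RNA in the Icos count was not tested.

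Cd80, Cd86 and Cd274 were higher in dendritic-cell-like cells in 3 of 3 libraries but did not reach the fold limit. Their log2 fold changes were 0.89, adjusted p = 0.000377 for Cd80, 0.65, adjusted p = 3.59e-05 for Cd86 and 0.52, adjusted p = 0.0126 for Cd274. Cd80 passed at 1.00 to 1.14 with library totals, without replicate 2 and on thinned cells.

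Mature dendritic-gated cells carried at least 3 of Ccr7, Fscn1, Ccl22, Cacnb3, Il4i1 and Socs2, genes that dendritic cells express on maturation and migration. There were 15, 19 and 14 such cells in replicates 1, 2 and 3, set against 66, 71 and 56 other conventional dendritic cells; 13.2% of 4000 genes met the call rule, 7.78% higher and 5.38% lower in mature dendritic-gated cells, and 4 of the 5 tested co-stimulatory and checkpoint genes, all higher in mature dendritic-gated cells. Median depth was 6328, 5008 and 6563 UMIs in mature dendritic-gated cells and 6741.5, 8481 and 6773.5 UMIs in the other conventional dendritic cells.

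Cd274 had 109.8, 249 and 373 CPM in mature dendritic-gated cells, against 53.4, 17.3 and 65.9 CPM in other conventional dendritic cells (log2 fold change 2.54 ± 0.39 (SE), adjusted p = 0.000407). Cd40 had 127, 249 and 191 CPM in mature dendritic-gated cells, against 79.1, 48.7 and 61.2 CPM in other conventional dendritic cells (log2 fold change 1.68 ± 0.32 (SE), adjusted p = 0.00282). For both genes mature dendritic-gated cells were higher in every library and the ranges did not overlap. Pdcd1lg2 had 101, 39.4 and 155 CPM in mature dendritic-gated cells, against 40.6, 7.86 and 44.7 CPM in other conventional dendritic cells (log2 fold change 1.76 ± 0.38 (SE), adjusted p = 0.00578). It was higher in 3 of 3 libraries, the ranges overlapped, and DESeq2 gave an adjusted p of 0.0872. Mature dendritic-gated cells held the highest mean of Pdcd1lg2, Cd86 and Cd40 among the myeloid classes named here, on 35, 110 and 74 UMIs. For Cd86 this order depended on how the cells were chosen. With gates alone and no clustering, Cd86 averaged 162 ± 18.9 CPM in mature dendritic-gated cells and 169 ± 37.8 CPM in other conventional dendritic cells. Cd40 then averaged 124 ± 44.0 CPM in mature dendritic-gated and 53.9 ± 18.6 CPM in other conventional dendritic cells, and Pdcd1lg2 49.0 ± 29.7 CPM in mature dendritic-gated and 16.5 ± 8.06 CPM in other conventional dendritic cells (SD, n = 3).

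The Cd80 call rested on replicates 2 and 3. It had 33.8, 112 and 237 CPM in mature dendritic-gated cells, against 51.3, 22.0 and 56.5 CPM in other conventional dendritic cells. It was higher in 2 of 3 libraries with overlap (log2 fold change 1.57 ± 0.45 (SE), adjusted p = 0.0282), and the call was lost without replicate 2 (adjusted p = 0.0916), without replicate 3 (0.157), with DESeq2 (0.232) and with library totals (0.0605). Cd86 was not called: it had 228, 282 and 364 CPM in mature dendritic-gated cells and 222, 159 and 344 CPM in other conventional dendritic cells (log2 fold change 0.39 ± 0.23 (SE), adjusted p = 0.331), high in both. In cells thinned to 1000 UMIs, none of the 4 calls was left in this comparison, where 1 of the 5 genes, Cd86, still passed the filter on low counts.

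Among phagocyte states, MHC class II-high macrophage-like cells, which carry the antigen-presentation genes H2-Aa and Cd74, were set against infiltrating-monocyte-like cells, marked by Ly6c2 and Ccr2. The call rule took in 5.97% of 12165 genes, 3.69% higher and 2.28% lower in MHC class II-high macrophage-like cells, and 3 of 6 tested co-stimulatory and checkpoint genes, all higher in MHC class II-high macrophage-like cells. Cd274 had 61.1, 42.0 and 86.0 CPM in MHC class II-high macrophage-like cells, against 24.6, 22.4 and 41.8 CPM in infiltrating-monocyte-like cells (log2 fold change 1.10 ± 0.085 (SE), adjusted p = 4.76e-11). Its ranges did not overlap, though the difference fell under the fold limit without replicate 1 (0.99) and with doublets kept (0.77). Cd40 had 38.8, 33.8 and 42.2 CPM in MHC class II-high macrophage-like cells, against 17.7, 14.7 and 20.3 CPM in infiltrating-monocyte-like cells (log2 fold change 1.13 ± 0.096 (SE), adjusted p = 2.93e-10). Pdcd1lg2 stayed low, at 8.39, 5.04 and 6.16 CPM in MHC class II-high macrophage-like cells and 2.39, 1.93 and 2.03 CPM in infiltrating-monocyte-like cells (log2 fold change 1.62 ± 0.25 (SE), adjusted p = 6.74e-06).

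Cd80 and Cd86 were not called between these states. Cd86 had 150.0, 160.0 and 193 CPM in MHC class II-high macrophage-like cells and 151, 169 and 190.3 CPM in infiltrating-monocyte-like cells (log2 fold change -0.03 ± 0.057 (SE), adjusted p = 0.778). Cd80 had 25.7, 27.3 and 41.4 CPM in MHC class II-high macrophage-like cells and 27.1, 28.8 and 40.6 CPM in infiltrating-monocyte-like cells (log2 fold change -0.04 ± 0.087 (SE), adjusted p = 0.771). Both pairs of ranges overlapped. The MHC class II-high class pooled 2 clusters that lay on either side of infiltrating-monocyte-like cells in Cd86. The cluster led by Pid1 and Cd74 had 254, 249 and 275 CPM of Cd86 and 38.9, 39.1 and 55.4 CPM of Cd80. The cluster led by H2-Ab1 and H2-Eb1 had 62.4, 55.8 and 54.0 CPM of Cd86 and 14.7, 13.6 and 17.9 CPM of Cd80.

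Resident-macrophage-like cells, marked by Vsig4, Folr2 and Cd163, had the least Cd86 of the 4 phagocyte states. They had 22.6, 19.3 and 20.9 CPM, against 151, 169 and 190.3 CPM in infiltrating-monocyte-like cells, with no overlap (log2 fold change -2.93 ± 0.18 (SE), adjusted p = 6.01e-35). Cd80 had 11.3, 9.66 and 9.88 CPM in resident-macrophage-like cells, against 27.1, 28.8 and 40.6 CPM in infiltrating-monocyte-like cells (log2 fold change -1.54 ± 0.27 (SE), adjusted p = 2.75e-07), a call lost on thinned cells (adjusted p = 0.0828). These were the 2 calls among 5 tested co-stimulatory and checkpoint genes, both lower, with 22.5% of 9786 genes called, 11.9% higher and 10.6% lower in resident-macrophage-like cells. Cd40 was higher under the fold limit, at 28.2, 30.0 and 24.2 CPM in resident-macrophage-like cells and 17.7, 14.7 and 20.3 CPM in infiltrating-monocyte-like cells (log2 fold change 0.76 ± 0.23 (SE), adjusted p = 0.00334), and Cd274 overlapped between the classes (0.13, adjusted p = 0.647 for the log2 fold change). Spp1 Arg1 macrophage-like cells, with a Cd86 mean of 39.9 ± 3.19 CPM, lay between (SD, n = 3).

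B cell-like cells, also antigen-presenting, had 167, 178 and 184 CPM of Cd86 and 48.7, 28.2 and 52.6 CPM of Cd40 on 30, 25 and 27 cells. Their Cd274 values of 243, 18.8 and 132 CPM came from 35, 2 and 10 UMIs, high in replicate 1 and low in replicate 2, so no level is set beside the other classes.

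Most UMIs of Icos, Pdcd1 and Cd28 lay in T cell-like cells, 274, 230 and 284 cells in replicates 1, 2 and 3. Lag3 was higher there than in monocyte/macrophage-like cells, but most of its UMIs lay in other classes. Between T cell-like and monocyte/macrophage-like cells 32.7% of 13273 genes met the call rule, 15.8% higher and 16.8% lower in T cell-like cells, and 9 of the 10 co-stimulatory and checkpoint genes, 6 higher and 3 lower in T cell-like cells. Icos had 308, 297 and 330.5 CPM in T cell-like cells, against 0.970, 0.591 and 0.700 CPM in monocyte/macrophage-like cells (8.25, adjusted p = 8.13e-15 for the log2 fold change). Cd28 had 137, 150.0 and 182 CPM in T cell-like cells, against 0.623, 0.985 and 0.700 CPM in monocyte/macrophage-like cells (7.28, adjusted p = 7.74e-14). Both were 3 of 3 libraries higher, with no overlap. Pdcd1 had 81.2, 56.9 and 113 CPM in T cell-like cells, against 0.450, 0.295 and 0.318 CPM in monocyte/macrophage-like cells (7.44, adjusted p = 3.14e-12). Lag3 was sparse, with 22 UMIs in T cell-like cells and 4.62, 2.59 and 10.7 CPM, against 0.381, 0.295 and 0.477 CPM in monocyte/macrophage-like cells (3.48, adjusted p = 3.76e-05). T cell-like cells held 77.4% of a library's Icos UMIs, 72.2% of its Pdcd1, 71.4% of its Cd28, 34.4% of its Ctla4 and 12.6% of its Lag3. Of a library's Lag3 UMIs, monocyte/macrophage-like cells held 18.3% and fibroblast-like cells 15.5%. These were larger classes, of 11027 and 5985 cells against 788 T cell-like cells.

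Ctla4 had 275, 305 and 408 CPM in T cell-like cells, against 8.63, 8.42 and 6.93 CPM in monocyte/macrophage-like cells (4.94, adjusted p = 7.65e-13). Outside T and NK cells it lay between 3.48 CPM in erythroid-like and 10.8 CPM in osteoclast-like cells over 14 classes without the dendritic ones, fibroblast-like cells included at 7.90 CPM. Dendritic-cell-like cells had 13.4, 6.88 and 9.59 CPM on 21 UMIs. The T cell gene Cd3e averaged 2.25 CPM in fibroblast-like cells. In GENCODE M21 the processed pseudogene Rpl18-ps1 lies within Ctla4 on the same strand, and Ctla4 and Rpl18 levels had a Pearson r of 0.725 and a Spearman rho of 0.741 over the 14 classes, which share libraries; whether Rpl18 reads were counted as Ctla4 was not tested. The low Ctla4 levels outside T cells are therefore uncertain.

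Pdcd1lg2 was the ligand gene that was higher in T cell-like cells. It had 21.8, 28.4 and 25.9 CPM in T cell-like cells, against 5.65, 3.30 and 4.42 CPM in monocyte/macrophage-like cells, with no overlap (log2 fold change 2.09 ± 0.25 (SE), adjusted p = 6.23e-06). Free RNA with the mean composition of the kept cells would give 0.507 CPM there if every S100a8 and S100a9 UMI in T cell-like cells were free RNA. Empty droplets were not used for this value, and the part of free RNA or doublets in the Pdcd1lg2 level was not tested. Within T cells it had 30.8, 32.2 and 37.6 CPM in Foxp3-gated and 23.1, 29.9 and 31.7 CPM in conventional CD4-gated cells, and NK cell-like cells had 51.3, 11.4 and 22.7 CPM. An antisense gene, A930007I19Rik, overlaps Pdcd1lg2, and AC119228.1 overlaps Cd274; the strand setting of the counting is not given in the sources used here, so reads of the partners cannot be told apart. Cd86, Cd40 and Cd80 were lower in T cell-like cells, by log2 fold changes of -2.81, -4.03 and -1.42 (adjusted p = 7.85e-11, 5.62e-08 and 0.000125). Cd274 was not called (-0.75, adjusted p = 0.00314).

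**Figure D4:**
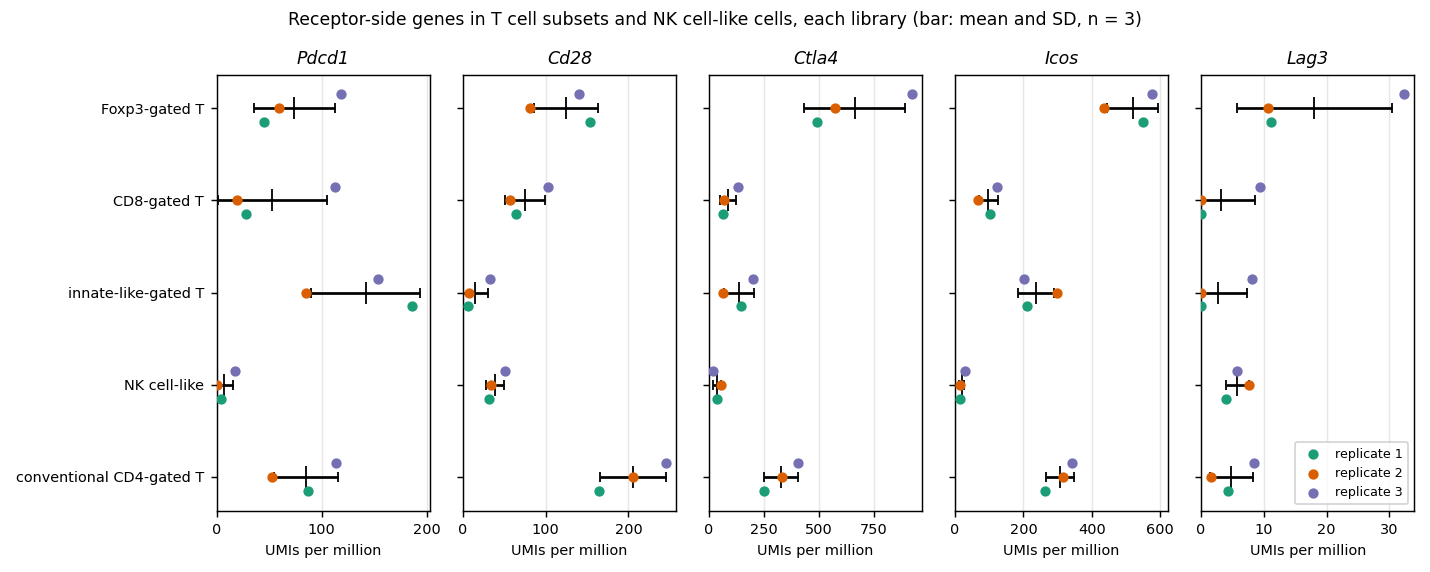
The 5 receptor genes in T cell subsets and NK cell-like cells, in CPM; coloured points are the 3 libraries and black bars their mean and SD. Foxp3-gated cells had 493, 574 and 925 CPM of Ctla4, all above the conventional CD4-gated cells at 250.1, 332 and 406 CPM, and Cd28 was lowest in innate-like-gated cells.

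The 3 comparisons between T cell subsets share the conventional CD4-gated cells, and those of dendritic-cell-like, neutrophil-like and T cell-like cells share the monocyte/macrophage-like cells. Foxp3-gated T cells, which hold at least 1 UMI of the lineage factor of regulatory T cells, had the most Ctla4 and Icos of the subsets. Ctla4 had 493, 574 and 925 CPM in the 38, 35 and 33 Foxp3-gated cells, against 250.1, 332 and 406 CPM in the 117, 109 and 115 conventional CD4-gated cells. The subsets did not overlap (log2 fold change 1.03 ± 0.15 (SE), adjusted p = 3.48e-05). This was the 1 call among 6 tested co-stimulatory and checkpoint genes, with 6.12% of 5911 genes called, 2.37% higher and 3.76% lower in Foxp3-gated cells, and it stood at the fold limit: it was 0.91 without replicate 3, 0.93 with doublets kept, 0.95 without the filter on low counts and 0.99 with library totals. Icos had 549, 435 and 575 CPM in Foxp3-gated cells, against 262, 317 and 342 CPM in conventional CD4-gated cells, higher in 3 of 3 libraries without overlap but under the fold limit (log2 fold change 0.81 ± 0.16 (SE), adjusted p = 0.00138). The share of cells with a Ctla4 UMI was 76.3, 77.1 and 93.9% in Foxp3-gated cells and 55.6, 58.7 and 61.7% in conventional CD4-gated cells; fibroblast-like cells, which should lack it, had 10.6%. At 1000 UMIs per cell the means were 47.1%, 27.7% and 0.980%.

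Cd28 leaned the other way without a call. It had 154, 80.5 and 139.8 CPM in Foxp3-gated cells and 165, 206 and 245 CPM in conventional CD4-gated cells (log2 fold change -0.61 ± 0.23 (SE), adjusted p = 0.101). It was lower in 3 of 3 libraries and passed at -1.02 without replicate 1. Pdcd1 overlapped between the subsets, at 44.8, 59.0 and 118 CPM in Foxp3-gated cells and 86.8, 53.1 and 114 CPM in conventional CD4-gated cells (log2 fold change -0.25 ± 0.28 (SE), adjusted p = 0.685). Lag3 had 12 UMIs in Foxp3-gated cells, 11.2, 10.7 and 32.3 CPM, against 8 UMIs and 4.34, 1.66 and 8.45 CPM in conventional CD4-gated cells, too few to be tested.

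CD8-gated T cells, 24, 22 and 25 per library, had less Ctla4, Icos and Cd28 than conventional CD4-gated cells. The call rule took in 7.82% of 4653 genes, 3.25% higher and 4.58% lower in CD8-gated cells, and 3 of 5 tested co-stimulatory and checkpoint genes, all lower in CD8-gated cells. Ctla4 had 64.5, 66.9 and 131 CPM in CD8-gated cells, against 250.1, 332 and 406 CPM in conventional CD4-gated cells (log2 fold change -1.73 ± 0.27 (SE), adjusted p = 4.65e-06). Icos had 101, 66.9 and 122 CPM in CD8-gated cells, against 262, 317 and 342 CPM in conventional CD4-gated cells (log2 fold change -1.48 ± 0.27 (SE), adjusted p = 6.46e-05). Cd28 had 64.5, 57.4 and 103 CPM in CD8-gated cells, against 165, 206 and 245 CPM in conventional CD4-gated cells (log2 fold change -1.26 ± 0.30 (SE), adjusted p = 0.00232). In all 3 genes the subsets did not overlap; DESeq2 did not call Cd28 (adjusted p = 0.104), and thinning left Ctla4 called (-1.64, adjusted p = 0.0395) but not Icos (0.146) or Cd28 (0.44). Pdcd1 had 27.7, 19.1 and 113 CPM in CD8-gated cells, against 86.8, 53.1 and 114 CPM in conventional CD4-gated cells (log2 fold change -0.55 ± 0.41 (SE), adjusted p = 0.487). The CD8-gated values came from 3, 2 and 12 UMIs, where 3 UMIs amount to 27.7, 28.7 and 28.1 CPM. Replicate 3 was high, and replicates 1 and 2 lay at or under that floor.

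Innate-like-gated T cells, 41, 31 and 43 per library, carried genes such as Blk, Sox13, Il23r and Zbtb16, which mark gamma-delta and innate-like T cells. The gate took any Cd3-positive cell with at least 1 UMI of such a gene and none of Foxp3, Cd4, Cd8a or Cd8b1. T cell receptor constant genes were not among the matrix symbols, and a cell with undetected Cd4 could enter. Cd28 was close to absent there: 5.82, 7.09 and 32.4 CPM on 6 UMIs in innate-like-gated cells, against 165, 206 and 245 CPM in conventional CD4-gated cells. The subsets did not overlap (log2 fold change -3.82 ± 0.40 (SE), adjusted p = 2.92e-08). Ctla4 had 146, 63.9 and 203 CPM in innate-like-gated cells, against 250.1, 332 and 406 CPM in conventional CD4-gated cells (log2 fold change -1.24 ± 0.24 (SE), adjusted p = 0.00047); without replicate 2 it fell under the fold limit (-0.89), and so it did on cells thinned to 1000 UMIs (-0.96, adjusted p = 0.0446). These were the 2 calls among 5 tested co-stimulatory and checkpoint genes, both lower, with 7.22% of 5123 genes called, 3.81% higher and 3.42% lower in innate-like-gated cells. Icos was not called: it had 209.6, 298 and 203 CPM in innate-like-gated cells and 262, 317 and 342 CPM in conventional CD4-gated cells (log2 fold change -0.35 ± 0.19 (SE), adjusted p = 0.309), lower in 3 of 3 libraries with overlapping ranges.

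Pdcd1 had its highest subset mean in innate-like-gated cells. It had 186, 85.1 and 154 CPM there, against 86.8, 53.1 and 114 CPM in conventional CD4-gated cells. It was higher in 3 of 3 libraries, the ranges overlapped, and it did not reach the fold limit (log2 fold change 0.80 ± 0.26 (SE), adjusted p = 0.0455). A T cell cluster led by Ccl1, Penk, Gzmc, Tnfsf11 and Il17a had a like level, 174, 113 and 137 CPM.

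The order of mean receptor levels differed between genes. For Ctla4 it ran from Foxp3-gated over conventional CD4-gated to innate-like-gated, CD8-gated and NK cell-like cells, at 664, 329, 137, 87.6 and 36.5 CPM; the innate-like-gated and CD8-gated ranges overlapped. Icos had the same order for the T cell subsets, at 519.6, 307, 237 and 96.7 CPM, and the conventional CD4-gated and innate-like-gated ranges overlapped. For Cd28 the conventional CD4-gated cells led, at 205 CPM, before Foxp3-gated cells at 125 CPM, CD8-gated cells at 75.0 CPM, NK cell-like cells at 39.0 CPM and innate-like-gated cells at 15.1 CPM. The Foxp3-gated and CD8-gated Cd28 ranges overlapped, as did those of NK cell-like and innate-like-gated cells. An unnamed cluster of 24 cells among the T and NK clusters, led by Dach2, Pde7b, Stab2 and Il1rl1, had 567, 399 and 323 CPM of Icos. This cluster had 49.3, 69.5 and 161 CPM of Pdcd1lg2. It held 8, 13 and 3 cells in replicates 1, 2 and 3, where 3 UMIs amount to 73.9, 52.1 and 242 CPM. The Pdcd1lg2 values of replicates 1 and 3 lay under those floors, so no level is set beside the other classes. Lag3 was highest on average in plasmacytoid-dendritic-like cells, at 38.4, 56.4 and 0 CPM on 20 UMIs in 21, 42 and 10 cells. Replicate 3 had none, but 3 UMIs amount to 75.1 CPM there, so its 0 does not show absence.

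**Figure D5:**
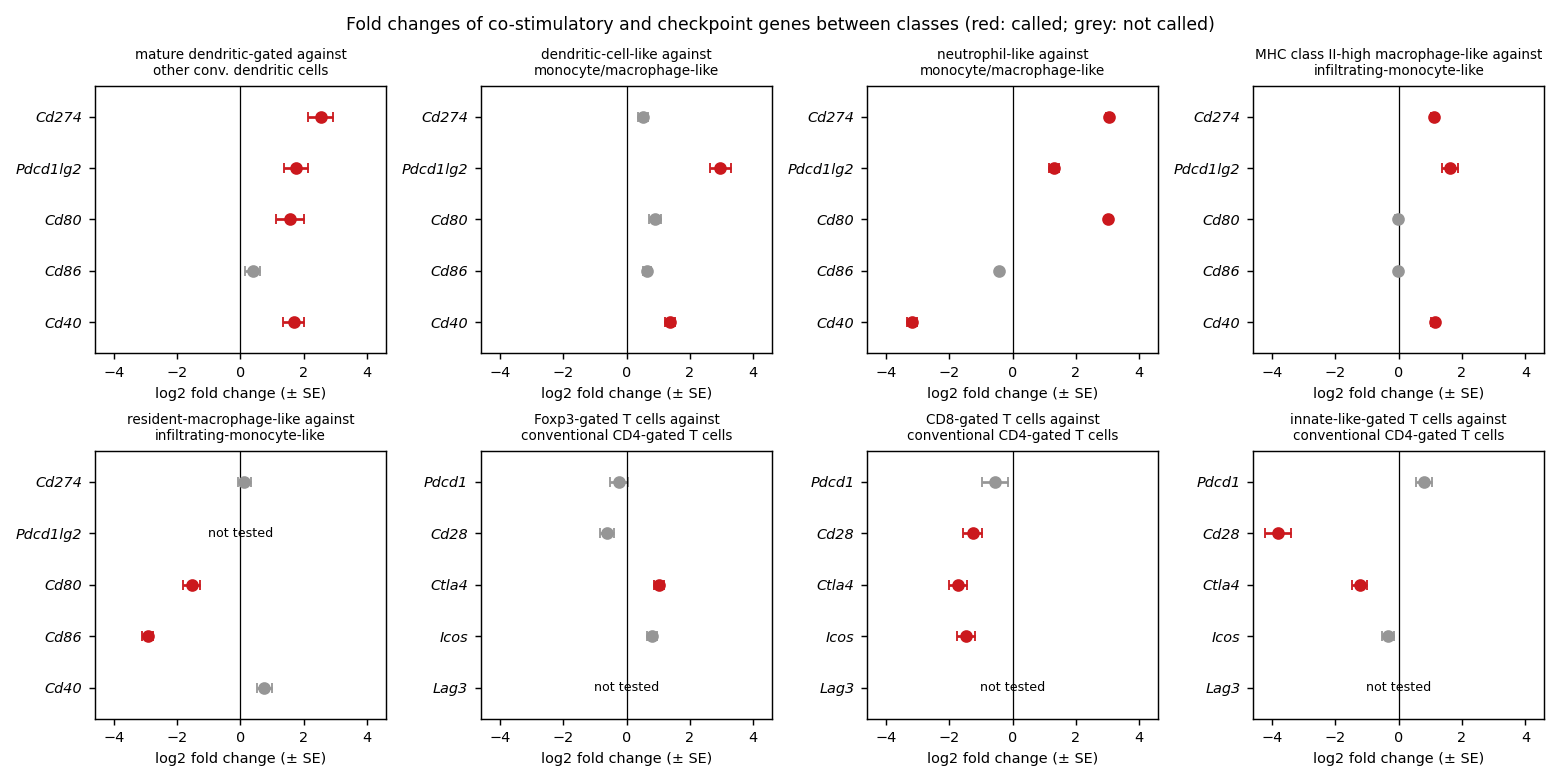
Log2 fold changes with the SE as bars in 8 comparisons, for the ligand-side genes in 5 myeloid and the receptor genes in 3 T cell comparisons; red points were called and grey ones were not. Cd274 and Cd80 stood at 3.04 and 3.02 in neutrophil-like against monocyte/macrophage-like cells, and Cd28 at -3.82 in innate-like-gated against conventional CD4-gated T cells.

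Ligand-side genes were found together most often in mature dendritic-gated cells. At least 2 of the 5 were detected in 80.0, 84.2 and 92.9% of mature dendritic-gated cells, 43.9, 35.2 and 46.4% of other conventional dendritic cells, 33.6, 27.6 and 31.2% of MHC class II-high macrophage-like cells, 11.4, 9.47 and 14.8% of neutrophil-like cells and 3.58, 3.14 and 3.94% of fibroblast-like cells. At 1000 UMIs per cell the shares were 6.67, 31.6 and 57.1% in mature dendritic-gated cells, 7.58, 2.82 and 8.93% in other conventional dendritic cells, 3.37, 2.35 and 4.75% in MHC class II-high macrophage-like cells and 4.70, 3.15 and 6.74% in neutrophil-like cells. The order of macrophage-like and neutrophil-like cells seen without thinning was not kept at equal depth, and the thinned shares of mature and other dendritic cells overlapped between libraries. Of the receptor genes, at least 2 of 5 were detected in 81.6, 68.6 and 84.8% of Foxp3-gated, 64.1, 69.7 and 63.5% of conventional CD4-gated, 39.0, 38.7 and 30.2% of innate-like-gated, 25, 18.2 and 36.0% of CD8-gated and 6.00, 12.2 and 8.16% of NK cell-like cells. Their median depths lay between 2758 and 5417.5 UMIs. At 1000 UMIs per cell the shares were 21.1, 20 and 36.4% in Foxp3-gated, 16.2, 15.6 and 20% in conventional CD4-gated, 9.76, 6.45 and 6.98% in innate-like-gated and 8.33, 0 and 16.0% in CD8-gated cells. The 0% in CD8-gated cells of replicate 2 was 0 of 22 cells, which allows a share of up to 13.6%. NK cell-like cells had 0 of 50, 49 and 49 cells, which allows up to 6.00%, 6.12% and 6.12% (3 counts, counting error only).

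The 5 lists of related genes were set beside these genes in the same tests, and a log2 fold change stands after each gene named. A list count near the share of all genes called is no result about that list. For neutrophil-like cells 22% of all genes tested were called higher and 24.4% lower. Between neutrophil-like and monocyte/macrophage-like cells, 10 of 11 tested interferon-gamma response genes passed, with 7 above and 3 below in neutrophil-like cells and a list median of 1.10 beside -0.022 over all genes. Irf1 led those higher, at 993, 954 and 1380.1 CPM in neutrophil-like cells and 117, 113 and 139 CPM in monocyte/macrophage-like cells (3.49). Ciita, the master regulator of MHC class II genes, was lower (-3.42). Other ligands gave 3 higher, led by Tnfsf14 (2.89), and 4 lower, led by Cd48 (-2.92), of 10 tested. Of the activation genes 6 were higher, led by Nr4a3 (3.76), and 1 lower, Maf (-3.00), of 10; of the other receptors 4 were higher and 2 lower of 9, with Havcr2 (-1.57) lower; and 2 of 12 signalling genes were higher, led by Ptpn6 (1.43).

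In dendritic-cell-like against monocyte/macrophage-like cells, 5 of 10 other receptors were higher, led by Btla (5.80), an inhibitory receptor of lymphocytes and dendritic cells. Of all genes tested there, 6.38% were called higher and 7.7% lower. Other ligands split, with Icosl, the ligand of ICOS, higher at 38.8, 70.0 and 43.1 CPM in dendritic-cell-like cells and 4.78, 5.02 and 4.80 CPM in monocyte/macrophage-like cells (3.24), and Cd276 lower (-2.08); 2 were higher and 2 lower of 11. Of 11 interferon-gamma response genes 1 was higher, Ciita (2.19), and 3 were lower, led by Cxcl10 (-1.80). The activation genes gave 2 higher, led by Nr4a3 (1.35), and 3 lower, led by Maf (-5.09), of 10, and the signalling genes 2 higher of 12, led by Traf1 (1.62).

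Mature dendritic-gated cells had more Relb, an NF-kB subunit of the pathway downstream of CD40. Against other conventional dendritic cells 7.78% of all genes tested were called higher and 5.38% lower. Relb had 414, 459 and 573 CPM in mature dendritic-gated cells, against 96.2, 118 and 91.8 CPM in other conventional dendritic cells (2.28, adjusted p = 1.5e-05), among 4 higher and 1 lower, Pik3cd (-2.45), of 11 signalling genes. Tnfrsf4, which encodes OX40, had 84.4, 72.2 and 100.1 CPM in mature dendritic-gated cells and 0, 1.57 and 0 CPM in other conventional dendritic cells (adjusted p = 2.66e-05), 1 of 2 higher among 3 other receptors. Interferon-gamma response genes gave 2 higher, led by Cxcl9 (1.85), and 1 lower, Ifngr1 (-1.27), of 9. Of 5 activation genes 1 was lower, Nr4a2 (-2.10), and of 4 other ligands none was called by edgeR (2 at an unadjusted p under 0.05, 0 called by DESeq2).

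Against infiltrating-monocyte-like cells, 3.69% of all genes tested were called higher and 2.28% lower in MHC class II-high macrophage-like cells. MHC class II-high macrophage-like cells had more Cxcl9, an interferon-gamma-induced chemokine for T cells, than infiltrating-monocyte-like cells (2.74), 1 of 11 tested interferon-gamma response genes. They also had more Traf1 (1.44), 1 of 12 signalling genes, and less of 3 of 10 other ligands, led by Ceacam1 (-1.57); 1 of 5 other receptors was higher and 1 lower, and none of 9 activation genes was called by edgeR (7 at an unadjusted p under 0.05, 0 called by DESeq2). Resident-macrophage-like cells had less Ciita than infiltrating-monocyte-like cells (-2.99), with 3 lower and 2 higher, led by Cxcl9 (2.13), of 11 interferon-gamma response genes. For resident-macrophage-like cells 11.9% of all genes tested were called higher and 10.6% lower. In the same comparison 6 of 9 activation genes were lower, led by Nr4a2 (-2.36), and 1 higher, Maf (2.78). Other ligands gave 3 lower, led by Tnfsf14 (-2.20), and 1 higher, Cd276 (1.14), of 9; 5 of 12 signalling genes were lower, led by Traf1 (-1.96), and 1 of 2 other receptors.

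In T cell-like against monocyte/macrophage-like cells 14 of 15 other receptors were higher, led by Cd226 (8.03). The list median was 6.16 beside -0.048 over all genes. Of all genes tested, 15.8% were called higher and 16.8% lower. Ifng, the cytokine that induces PD-L1, had 247, 94.0 and 125 CPM in T cell-like cells and 0.797, 0.0492 and 0.254 CPM in monocyte/macrophage-like cells (8.25); 2 interferon-gamma response genes were higher and 5 lower, led by Cxcl9 (-4.75), of 12. Other ligands gave 2 higher, led by Tnfsf14 (1.10), and 4 lower, led by Cd276 (-1.72), of 11. Activation genes gave 6 higher, led by Tox (8.21), and 1 lower, Entpd1 (-1.67), of 12; signalling genes gave 1 higher, Nfkb1 (1.14), and 2 lower, led by Ptpn6 (-1.81), of 12.

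Foxp3-gated cells had little of the helper genes Cd40lg, the ligand of CD40, and Ifng. Cd40lg had 2.80, 0 and 0 CPM in Foxp3-gated cells, against 81.0, 86.3 and 63.4 CPM in conventional CD4-gated cells (adjusted p = 1.92e-06). Ifng had 5.60, 0 and 0 CPM in Foxp3-gated cells, against 487, 163 and 222 CPM in conventional CD4-gated cells (adjusted p = 3.71e-11). No fold is given for either, since at most 1 library of the Foxp3-gated cells held a UMI. Of all genes tested, 2.37% were called higher and 3.76% lower in Foxp3-gated cells. Il2ra, a chain of the interleukin-2 receptor, was higher, at 605, 526 and 688 CPM in Foxp3-gated cells and 70.8, 56.4 and 84.5 CPM in conventional CD4-gated cells (3.14), and so was the co-stimulatory receptor Cd27 (3.67). Of the lists, 4 other receptors were higher and 3 lower of 12, 3 activation genes higher and 1 lower, Nr4a3 (-1.11), of 11, and 1 interferon-gamma response gene higher, Gbp5 (1.76), and 1 lower of 9. By edgeR none of 12 signalling genes (4 at an unadjusted p under 0.05, 0 called by DESeq2) and none of 3 other ligands (1 at an unadjusted p under 0.05, 0 called by DESeq2) was called.

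CD8-gated cells had no Cd40lg UMI in any library, against 81.0, 86.3 and 63.4 CPM in conventional CD4-gated cells. In CD8-gated cells 3.25% of all genes tested were called higher and 4.58% lower. Of 12 other receptors 2 were higher in CD8-gated cells, led by Cd27 at 129, 172 and 150.0 CPM in CD8-gated cells and 7.23, 8.30 and 14.8 CPM in conventional CD4-gated cells (4.08), and 5 were lower. Activation genes gave 4 lower, led by Nr4a3 (-2.24), of 10, and Ifng was the 1 interferon-gamma response gene called, lower (-2.29), of 7. Signalling genes gave 2 higher, led by Pik3cd (1.42), and 1 lower, Nfkb1 (-1.61), of 11; none of 3 other ligands was called by edgeR (1 at an unadjusted p under 0.05, 0 called by DESeq2). Innate-like-gated cells had less of 8 of 11 other receptors than conventional CD4-gated cells, led by Cd6 (-3.44). In this comparison 3.81% of all genes tested were called higher and 3.42% lower. Tox, a transcription factor of T cell development and exhaustion, was higher, at 419, 631 and 769.8 CPM in innate-like-gated cells and 85.3, 156 and 177 CPM in conventional CD4-gated cells (2.15), with 2 activation genes higher and 3 lower, led by Nr4a3 (-3.95), of 9. Ifng (-2.33) and Traf1 (-1.41) were the single calls, both lower, among 7 interferon-gamma response and 12 signalling genes, and none of 4 other ligands was called by edgeR (1 at an unadjusted p under 0.05, 0 called by DESeq2).

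The median log2 fold changes of the lists are set beside those of all genes tested, as descriptions only. For neutrophil-like cells the medians were 0.35 for the tested genes of the 10 described here, 0.14 for other ligands, 1.0 for other receptors, 1.10 for interferon-gamma response, 1.61 for activation and 0.56 for signalling genes, beside -0.022 over all genes. For dendritic-cell-like cells the medians were 0.89 for the tested genes of the 10 described here, 0.035 for other ligands, 2.22 for other receptors, -0.36 for interferon-gamma response, -0.36 for activation and 0.39 for signalling genes, beside -0.065 over all genes. For mature dendritic-gated cells the medians were 1.68 for the tested genes of the 10 described here, -0.42 for other ligands, 2.08 for other receptors, 0.38 for interferon-gamma response, -1.26 for activation and 0.021 for signalling genes, beside -0.026 over all genes. For MHC class II-high macrophage-like cells the medians were 0.54 for the tested genes of the 10 described here, -0.22 for other ligands, -0.33 for other receptors, 0.083 for interferon-gamma response, 0.29 for activation and 0.028 for signalling genes, beside 0.0028 over all genes. For resident-macrophage-like cells the medians were -0.53 for the tested genes of the 10 described here, -0.71 for other ligands, -0.90 for other receptors, -0.63 for interferon-gamma response, -1.66 for activation and -0.47 for signalling genes, beside 0.0037 over all genes. For T cell-like cells the medians were 2.78 for the tested genes of the 10 described here, -0.79 for other ligands, 6.16 for other receptors, -0.79 for interferon-gamma response, 1.04 for activation and 0.19 for signalling genes, beside -0.048 over all genes. For Foxp3-gated cells the medians were 0.36 for the tested genes of the 10 described here, 0.027 for other ligands, 0.22 for other receptors, 0.43 for interferon-gamma response, 0.91 for activation and -0.13 for signalling genes, beside 0.02 over all genes. For CD8-gated cells the medians were -1.48 for the tested genes of the 10 described here, 0.17 for other ligands, -1.08 for other receptors, -0.16 for interferon-gamma response, -1.0 for activation and -0.014 for signalling genes, beside -0.011 over all genes. For innate-like-gated cells the medians were -0.35 for the tested genes of the 10 described here, 0.51 for other ligands, -1.78 for other receptors, -0.19 for interferon-gamma response, -0.71 for activation and 0.24 for signalling genes, beside 0.014 over all genes.

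The genes most like each of these by Pearson r of the log2 mean level over 19 classes, which share libraries and hold no dendritic class, given as a description, were Ppp1r15a (0.903), Cnbd2 (0.902) and Irak2 (0.889) for Cd274 and Samhd1 (0.944), Nfkbiz (0.927) and Picalm (0.923) for Cd80. For Pdcd1lg2 they were Rhoh (0.932), Cd69 (0.924) and Ap1s3 (0.923), and for Cd40 Rufy3 (0.919), Cd180 (0.894) and Fgd6 (0.892). Cd86 was nearest to A930007I19Rik (0.852), C130026I21Rik (0.828) and March1 (0.825). Among the receptors, Pdcd1 was nearest to Cd3g (0.981), Icos (0.975) and Dkkl1 (0.973), Icos to Cd3g (0.980), Cd3e (0.975) and Pdcd1 (0.975), and Ctla4 to Icos (0.964), Il2ra (0.952) and Cd3e (0.945). Cd28 was nearest to Ubash3a (0.966), Lck (0.957) and A930024E05Rik (0.954), and Lag3 to Ciapin1 (0.893), Tnfrsf9 (0.872) and Mis18a (0.865).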

How the data were processed

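The authors deposited 1 matrix per library of raw UMI counts by gene symbol and cell. Per the file headers PISA 1.0 wrote them, and the submitters' processing notes name Seurat 3.0.2, R 3.6 and GRCm39 (mm39). Aligner, annotation and strand setting: not given in the sources used here. The labels state 11111, 10668 and 14363 cells; the matrices held 11939, 11602 and 15263 barcodes. Cell names are running numbers, so 2602 to 2866 names shared by pairs of libraries do not show shared cells.

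A barcode needed 200 or more genes and no more than 20% mitochondrial UMIs (82 failed). Scrublet doublets (scanpy 1.11.5) scored above 0.2 were left out, 488, 456 and 931; the automatic threshold marked 413, 0 and 1292, so this score was set after seeing them. Leiden clustering (resolution 1, 2000 variable genes without 79 genes of the lists, 30 components, 30 neighbours, seed 1) was named from fixed markers, with gates of 1 UMI, and at least 3 genes for mature dendritic cells. Clusters mixed between classes were left out. Counts were summed per library and class; edgeR 4.0.16 in R 4.3.3 (filterByExpr, TMM, quasi-likelihood F-test) was fitted for each of 9 comparisons with the library as a block, which comes from the design: both sums of a library are from the same mice. It was tested on simulated counts. The SE of a log2 fold change was taken as its size divided by the square root of the F statistic, so it restates the test. Alternatives were other scalings, DESeq2 1.42.0, no filter, no block, each library left out, doublets kept, thinning, 10% mitochondrial UMIs, gates of 2 UMIs or gates alone, and resolution 2. Named list genes had the largest called fold in each direction, in all 3 libraries, with at least 10 CPM. The genes and lists were chosen with earlier results of these data known. Intervals and floors cover counting error only.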

Additional observations from a re-analysis of the deposited data

How the results depend on the processing

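No called fold change of a co-stimulatory or checkpoint gene turned direction where it was recomputed, though Pdcd1lg2 did in neutrophil-like cells when counted per 1000 cells; some fold changes that were not called changed sign. Gates of 2 UMIs were run for the T cell subsets, gates alone and the finer clustering for levels, and thinned cells where enough counts were left. Genes called, leaving out each library in turn, ran 1693 to 1706 (1818 with all 3) for dendritic-cell-like against monocyte/macrophage-like cells, 420 to 636 (526 with all 3) for mature against other dendritic cells, 6379 to 6629 (6342 with all 3) for neutrophil-like against monocyte/macrophage-like cells, 749 to 768 (726 with all 3) for MHC class II-high macrophage-like against infiltrating-monocyte-like cells, 2133 to 2344 (2201 with all 3) for resident-macrophage-like against infiltrating-monocyte-like cells, 4175 to 4374 (4334 with all 3) for T cell-like against monocyte/macrophage-like cells, 322 to 355 (362 with all 3) for Foxp3-gated against conventional CD4-gated cells, 237 to 341 (364 with all 3) for CD8-gated against conventional CD4-gated cells and 259 to 399 (370 with all 3) for innate-like-gated against conventional CD4-gated cells; without replicate 3 the CD8-gated count was 237. Of the co-stimulatory and checkpoint genes, 2 to 3 (of 3) for dendritic-cell-like against monocyte/macrophage-like cells, 3 to 4 (of 4) for mature against other dendritic cells, 2 to 3 (of 3) for MHC class II-high macrophage-like against infiltrating-monocyte-like cells, 9 to 10 (of 9) for T cell-like against monocyte/macrophage-like cells, 0 to 2 (of 1) for Foxp3-gated against conventional CD4-gated cells and 1 to 2 (of 2) for innate-like-gated against conventional CD4-gated cells were called. On cells thinned to 1000 UMIs the genes called were 885 for dendritic-cell-like against monocyte/macrophage-like cells, 80 for mature against other dendritic cells, 436 for MHC class II-high macrophage-like against infiltrating-monocyte-like cells, 960 for resident-macrophage-like against infiltrating-monocyte-like cells, 117 for Foxp3-gated against conventional CD4-gated cells, 59 for CD8-gated against conventional CD4-gated cells and 139 for innate-like-gated against conventional CD4-gated cells, and the co-stimulatory and checkpoint genes called were 0 for mature dendritic, 1 for resident-macrophage-like, 1 for CD8-gated and 1 for innate-like-gated cells. The numbers of genes tested in these refits are not given, so their counts are not shares. Thinning also left fewer genes to test, so a call lost on thinned cells can mean an untested gene. In mature dendritic cells most of the co-stimulatory and checkpoint genes no longer passed the filter on low counts. DESeq2 called 277, 175, 152 and 170 genes for mature dendritic, Foxp3-gated, CD8-gated and innate-like-gated cells. It called 2 of the co-stimulatory and checkpoint genes for mature dendritic cells. In Foxp3-gated cells 0 were called with library totals and 0 with doublets kept. Without the replicate block the genes called were 1850, 525, 6334, 692, 2183, 4361, 345, 334 and 349 in the order above, and no co-stimulatory or checkpoint call changed. Thinned shares of positive cells were 18.3% (26.9% unthinned) for Cd274, 17.8% (37.0% unthinned) for Pdcd1lg2, 13.8% (35.5% unthinned) for Pdcd1, 13.8% (22.2% unthinned) for Cd80, 25.1% (64.9% unthinned) for Cd86, 19.4% (53.1% unthinned) for Cd28, 47.1% (82.5% unthinned) for Ctla4, 32.8% (78.8% unthinned) for Icos and 26.9% (70.8% unthinned) for Cd40, each in the named class with its highest mean; the thinned values have fewer UMIs by construction, and other causes were not tested. With gates alone, mature dendritic-gated cells had 162 CPM of Cd86 and 124 CPM of Cd40. With library totals in place of TMM the median of all genes moved by -0.33 (log2) for neutrophil-like, 0.41 for T cell-like, -0.20 for CD8-gated and 0.12 for dendritic-cell-like cells. The share of calls that were higher was then 33.1% (against 47.4%), 67.3% (against 48.5%) and 28.1% (against 41.5%) for the first 3 of these. Small gates limit the T cell subsets and mature dendritic cells.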
